A study of Mus musculus with 2 samples.

Results

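The 50 genes described here act in DNA replication (20 genes) and in mitosis (30 genes). They were taken as a list of gene names, and all 50 were found among the 27597 genes named on the array, with the array's older names Cdc2a and Cdc45l counted as Cdk1 and Cdc45. Peripheral CD8+ T cells of 2 genotypes were compared on 2 two-colour Agilent arrays, 1 for each biological replicate. One genotype was Bcl11bF/F/dLck-iCre, in which a distal Lck promoter drives the Cre recombinase in T cells, and the other was wild type. All mice carried the same infection, Listeria monocytogenes-OVA, at day 6, so no array holds uninfected cells. The cells were enriched by negative selection, to over 90% purity per the labels. RNA of deficient cells always carried Cy5 and RNA of wild-type cells Cy3, and both arrays lie on 1 slide, so dye and genotype cannot be told apart. The labels call the arrays biological replicates and do not say how many mice each held or give their strain background, age or sex.

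A CD8+ T cell that meets its antigen leaves quiescence and divides many times in a few days. Before S phase, E2F transcription factors and cyclin E switch on the genes that license replication origins, build the MCM helicase and supply nucleotides. Genes for the spindle, the kinetochore and chromosome condensation are switched on later, towards G2 and M phase, largely through cell-cycle homology (CHR) elements in their promoters. In bulk RNA, fewer dividing cells and less of these RNAs in each dividing cell cannot be told apart.

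Promoter sequences are shown for 4 members because they hold, or lack, words that differ in frequency between the replication and mitosis members. RefSeq's promoter table (GRCm38.p6) matched 41 of the 50 members, and its windows run from 250 bases before to 50 bases after the annotated start. E2F words (TTTCCCGC, TTTGGCGC, TTTCGCGC or TTTGCCGC) and CHR words (TTTGAA or TTCGAA) were searched on both strands, and matches may overlap. The 150 bases before the start are printed 5′ to 3′ on the gene's strand, with matches to E2F or CHR words in capitals. Mcm6 (chr1:128359706-128359855, minus strand) encodes a helicase subunit and holds 3 E2F matches, of which 2 overlap; Ccne1 (chr7:38107491-38107640, minus strand) encodes cyclin E1 and holds no match in its window. Cdc20 (chr4:118437344-118437493, minus strand) encodes an activator of the anaphase-promoting complex, and Mki67 (chr7:135716380-135716529, minus strand) encodes the proliferation marker Ki-67; both hold CHR matches.
Mcm6: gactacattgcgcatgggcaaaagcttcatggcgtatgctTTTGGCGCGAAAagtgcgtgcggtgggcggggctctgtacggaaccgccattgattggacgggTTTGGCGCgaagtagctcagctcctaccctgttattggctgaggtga
Ccne1: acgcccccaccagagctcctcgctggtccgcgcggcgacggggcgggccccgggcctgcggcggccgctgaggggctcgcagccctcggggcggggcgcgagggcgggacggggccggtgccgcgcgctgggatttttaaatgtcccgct
Cdc20: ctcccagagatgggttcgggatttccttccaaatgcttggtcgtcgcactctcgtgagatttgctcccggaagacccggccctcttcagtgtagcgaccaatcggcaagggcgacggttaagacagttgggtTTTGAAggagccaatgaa
Mki67: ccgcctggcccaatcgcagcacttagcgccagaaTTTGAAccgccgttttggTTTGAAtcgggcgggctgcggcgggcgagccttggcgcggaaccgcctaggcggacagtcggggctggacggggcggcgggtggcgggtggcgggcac

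An E2F word occurred in 6 of 17 replication members with a promoter in the table (35.3%), in 2 of 24 mitosis members (8.33%) and in 2.32% of all 27025 promoters. The 6 were Cdc6, Cdt1, Mcm3, Mcm5, Mcm6 and Mcm7, and the 2 mitosis members were Cdk1 and Ncapg. A CHR word occurred in 17 of 24 mitosis members (70.8%), in 4 of 17 replication members (23.5%) and in 19.4% of all promoters. The 4 replication members with a CHR word were E2f8, Cdc45, Mcm2 and Mcm7. The CCAAT word, which the factor NF-Y binds, occurred in 64.7% of replication members, 79.2% of mitosis members and 37.9% of all promoters. These matches describe the sequence and are not binding data. The other replication and mitosis genes described further on showed like shares (E2F 39.1% and 8.06%, CHR 17.4% and 67.7%).

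**Figure D1:**
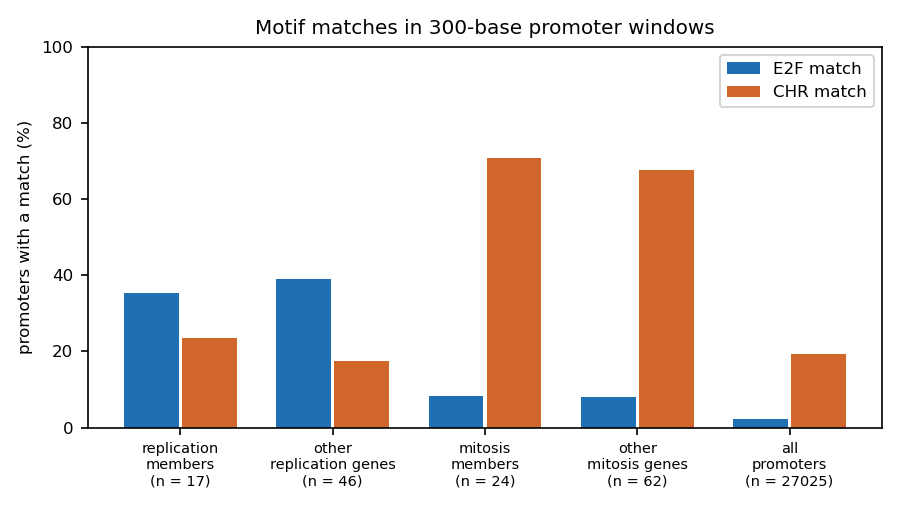
Percent of 300-base promoter windows with at least 1 E2F match (blue) or CHR match (orange), for replication members, other replication genes, mitosis members, other mitosis genes and all promoters in the table. E2F matches are most frequent among replication genes (35.3% of 17 members) and CHR matches among mitosis genes (70.8% of 24 members).

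Each array has 45018 spots, and 9941 genes had a probe well above background in at least 1 channel on both arrays and were tested. The log2 ratio of deficient over wild type had a standard deviation over the genes tested of 0.96 on replicate 1 and 0.65 on replicate 2, so replicate 1 carries more spread. Negative-control spots read a median of 968.4 and 706.9 in the Cy5 channel and 326.5 and 406.1 in the Cy3 channel (replicates 1 and 2, scanner units). By its brightest probe, Bcl11b itself gave log2 ratios of -0.69 and -2.95, so this probe read the deletion unequally on the arrays. The mean was -1.82 ± 1.60 (SD, n = 2, limma adjusted p = 6.56e-04). A dimmer Bcl11b probe gave -1.09 and -2.03 (at least 2.95-fold lower). There wild type was well above background on both arrays and deficient cells on neither. The Bcl11b call passed in 6 of 11 alternatives, with adjusted p up to 0.271. All 12 T cell markers were measured, 4 of them lower in deficient cells, with a median log2 ratio of -1.10. Markers of other cells moved the other way: 13 of 13 tested macrophage genes were called higher (15 listed, median 3.17), as were 3 of 5 B cell genes, 4 of 7 erythroid genes, 3 of 7 neutrophil genes and 1 of 3 plasma cell genes, of which 1 other was lower. The summed net signal of the macrophage genes was 28516 and 19334 in wild type and 131841 and 295680 in deficient samples. The part of these other cells in the results on the 50 genes was not tested.

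Of the 50 members, 27 passed the filter on dim probes and were tested, 12 of the 20 replication genes and 15 of the 30 mitosis genes. One member was called lower (Ccne1) and 0 were called higher by limma with Benjamini-Hochberg adjustment at 0.05, where 5.96% of all genes tested were called lower and 3.65% higher. A count of 1 in 27 is no larger than that background. An unadjusted p under 0.05 was reached by 2 of the 27 members tested and by 2176 of all 9941 genes tested. In this fit every gene received the same standard error, 0.42 on the log2 scale, so a gene's p does not reflect its own spread between the arrays. The smallest mean difference called in this fit was 1.18. Alternatives with another filter or background correction called some smaller differences, such as -0.93 for Ccne1 without background correction. An exact sign permutation over 2 arrays cannot go below a two-sided p of 0.5. Centring each array on its median in place of the loess curve left 1 member lower and 0 higher, while over all genes it gave 69 higher and 350 lower in place of 363 and 592.

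The replication members lay lower than the mitosis members on both arrays. Their median log2 ratio was -0.72 on replicate 1 and -0.36 on replicate 2, against -0.02 and 0.29 for the mitosis members and -0.22 and -0.01 for all genes tested. The gap between the classes (mitosis minus replication) was 0.70 and 0.64 on the arrays and 0.54 for the means of both arrays. It is a description of 12 and 15 genes without a p. All 12 replication genes tested had a mean below 0, and 11 were below 0 on both arrays, Tk1 being the exception. Of the 15 mitosis genes, 9 had a mean above 0, 7 were above 0 on both arrays, 2 were below 0 on both and 6 changed sign between arrays. That majority turned with the scaling: 6 of 15 means were below 0 as reported, 10 under median centring, and 8 with the fitted background surface, the scanner program's ratios or the deposited table. The 12 replication means were below 0 under each of these. Among all genes tested, 56.5% had a mean below 0, 41.5% were below 0 on both arrays and 26.0% changed sign. Of these 9941 genes, 3233 were above 0 on both arrays.

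These counts cover only members bright enough to be tested, and a dim gene could pass through the group in which it was bright. Without the filter, all 50 members gave medians of -0.45 for the 20 replication genes and -0.04 for the 30 mitosis genes. The median of all 27595 genes was 0.03. Of the replication genes 17 of 20 lay below 0, and of the mitosis genes 17 of 30, beside 12751 of all 27595 genes. The gap was then 0.49 on replicate 1 and 0.25 on replicate 2. When both channels had to be well above background on both arrays, 8 replication and 12 mitosis members remained, with medians of -0.51 and 0.11. All 8 of those replication genes lay below 0 on both arrays, and 1 of the 12 mitosis genes did, beside 1806 of all 5836 genes. The gap between the class medians stayed above 0 under all 11 alternatives, between 0.40 and 0.71. Centring on the genes' median and separate channels could not change the gap (0.54 in each). The deposited table repeats the scanner program's ratios, so these are not separate checks. Measured from the median of all genes, the replication median lay lower under each of the 11 (-0.66 to -0.28), whereas the mitosis median ranged from -0.07 to 0.33 and was below that of all genes in 1.

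**Figure D2:**
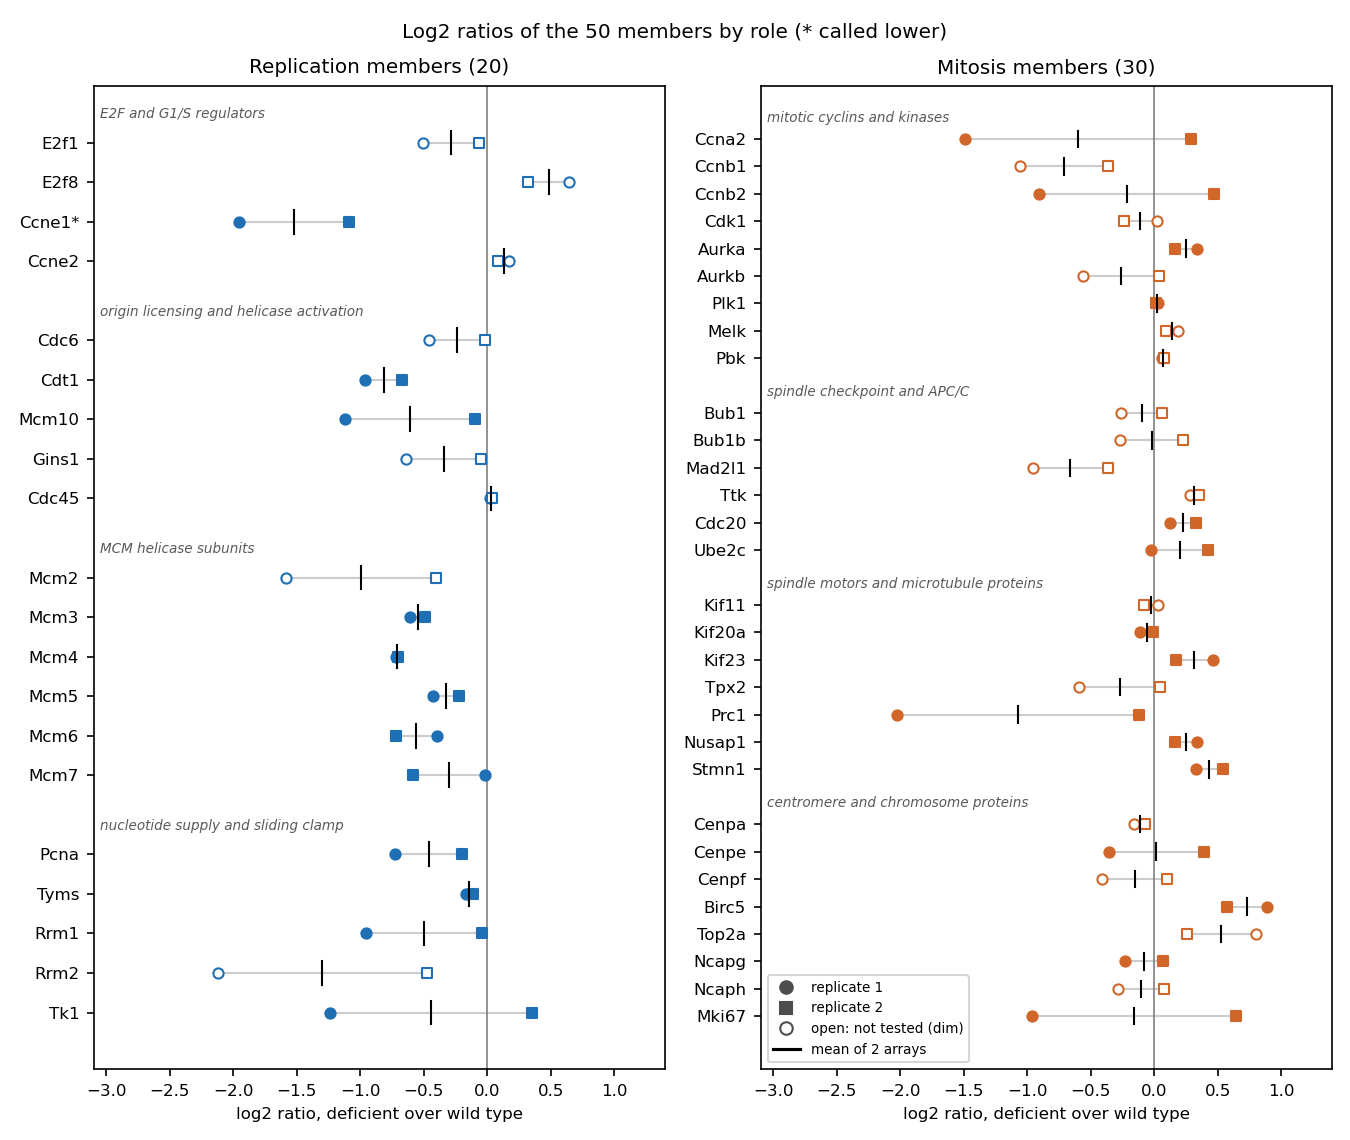
Log2 ratio of deficient over wild type for the 50 members, ordered by role, with replicate 1 as circles, replicate 2 as squares and their mean as a black bar; open symbols are members too dim to be tested. Filled replication symbols lie left of 0 except Tk1 on replicate 2, whereas filled mitosis symbols lie on both sides, and several genes (Mki67, Ccna2, Ccnb2) cross 0 between arrays.

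**Figure D3:**
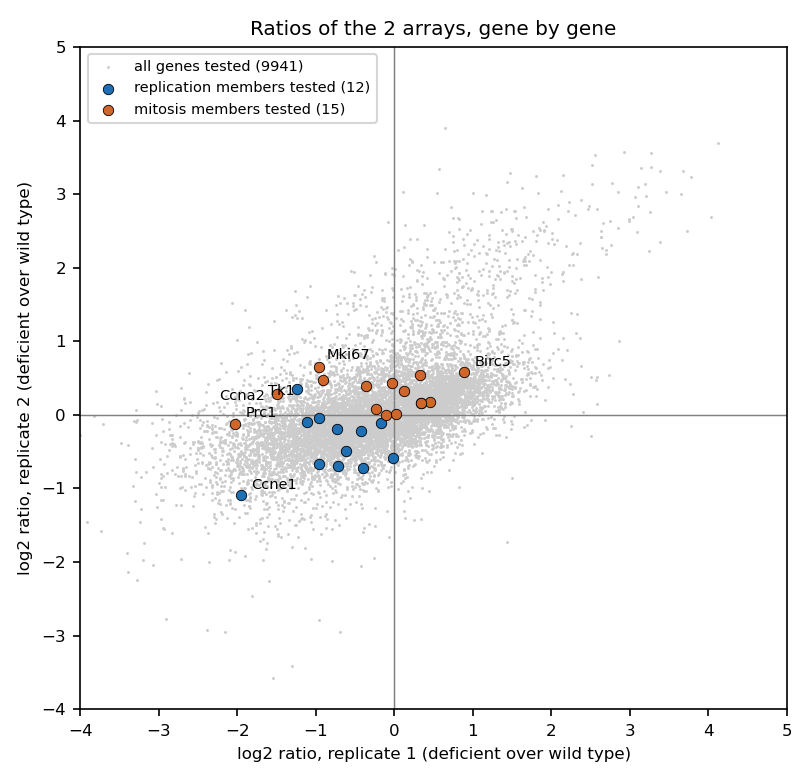
Log2 ratio on replicate 1 (x axis) against replicate 2 (y axis) for all 9941 genes tested (grey), the 12 replication members (blue) and the 15 mitosis members (orange). Ccne1 lies apart at the lower left (-1.96 and -1.09), and most mitosis members lie above the replication members along the y axis.

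Among the regulators of S phase entry, cyclin E1, the partner of Cdk2 at the G1/S boundary, gave the only call among the 50 genes. The Ccne1 probe (chr7:37806678-37806701, build NCBI36 of the array's headers, not to be set against the promoter coordinates) read net signals of 1160 and 1199 in wild type and of 182 and 715 in deficient cells, replicates 1 and 2. The deficient signal was the lower one on both arrays and was well above background only on replicate 2. Ccne1 thus passed the filter through wild type, the group in which it was high. It was not tested when both channels had to be well above background. After normalization the log2 ratios were -1.96 and -1.09, a mean of -1.53 ± 0.61 (SD, n = 2, limma adjusted p = 0.00637). Another, dimmer Ccne1 probe listed at the same position gave -1.72 and -0.81, with a deficient signal not well above background on either array. The lower call passed in 5 of the 10 alternatives that tested Ccne1, with adjusted p between 0.00617 and 0.268. The values in the 5 that missed it were -1.37 (fitted background surface), -2.19 (both the scanner program's ratios and the deposited table) and an unmoved -1.53 (no filter; separate channels). E2f1, E2f8 and Ccne2 encode E2F factors and cyclin E2 and were too dim to be tested (E2f1 -0.51 and -0.06, E2f8 0.65 and 0.32, Ccne2 0.17 and 0.09). A dimmer E2f8 probe, not well above background in either group, gave -0.83 and -0.003. The 10-spot probe of E2f1 read -0.67 on replicate 1 and -0.46 on replicate 2, with a spread over 9 usable spots of 0.08 (SD) on each, but was not well above background in either channel.

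Licensing factors load the helicase onto origins in G1. Cdt1, which does so together with Cdc6, read net signals of 1390 and 1625 in wild type and 468 and 1387 in deficient cells. Its log2 ratios were -0.96 and -0.67, a mean of -0.82 ± 0.20 (SD, n = 2), the next lowest mean among the tested replication genes, and its adjusted p was 0.231. Mcm10, which helps to activate the loaded helicase, gave -1.12 and -0.10, and its deficient signal was well above background only on replicate 2. Cdc6 (-0.46 and -0.02), Gins1 (-0.64 and -0.05) and Cdc45 (0.02 and 0.04), the last 2 parts of the active helicase, were not tested.

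The MCM proteins form the ring-shaped replicative helicase, and the subunits measured lay below 0 together. Mcm6 was among the brightest members, with net signals of 11727 and 12315 in wild type and 4727 and 10026 in deficient cells. The wild-type signal was higher on both arrays, 2.48-fold on replicate 1 and 1.23-fold on replicate 2, before any dye normalization. After loess the log2 ratios of Mcm6 were -0.39 and -0.72, a mean of -0.56 ± 0.23 (SD, n = 2, adjusted p = 0.455). For Mcm4, with net signals of 5232 and 5598 in wild type and 1673 and 4666 in deficient cells, the log2 ratios were -0.72 and -0.70, the closest pair among the subunits (SD 0.01, adjusted p = 0.311). Mcm3 gave -0.61 and -0.49, Mcm5 -0.43 and -0.22, and Mcm7 -0.02 and -0.58. All 5 tested subunits were below 0 on both arrays and none passed the test; their median was -0.55, beside -0.12 for all genes tested. Median centring in place of loess moved Mcm6 to -1.50 and Mcm4 to -1.56 (adjusted p = 0.0762 and 0.0624). Another probe of Mcm3 read -0.79 and -0.04, and a dim probe of Mcm4 read 0.54 and 0.32 with a deficient signal well above background on 1 array only. Mcm2, the remaining subunit, read -1.59 and -0.40 and was not tested, since wild type was well above background on 1 array and deficient cells on neither.

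Genes for the sliding clamp and for nucleotide supply were less even between arrays. Pcna, the clamp that holds DNA polymerase on its template, read net signals of 6011 and 6091 in wild type and 1938 and 7254 in deficient cells. Its log2 ratios were -0.73 and -0.20 (adjusted p = 0.538). The Pcna probe is printed 10 times on each array, and its repeat spots had an SD of 0.08 on replicate 1 and 0.07 on replicate 2, against an SD of 0.37 between the arrays. Rrm1, the large subunit of ribonucleotide reductase, gave -0.96 and -0.04, and Tk1, thymidine kinase, gave -1.24 and 0.35. A dimmer Rrm1 probe, not well above background in either group, gave 0.46 and 0.27. Tyms, thymidylate synthase, gave -0.17 and -0.11 by its brightest probe and -1.43 and -0.08 by another that overlaps it. The Tyms probes thus disagree on replicate 1 only. Rrm2, the small subunit, read -2.12 and -0.48 and was not tested: wild type was well above background on replicate 1 only and deficient cells on neither array. On replicate 2 the net signals were 166 in wild type and 174 in deficient cells.

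The mitotic cyclins split by array. Ccna2, cyclin A2, gave -1.49 on replicate 1 and 0.29 on replicate 2, and Ccnb2, cyclin B2, gave -0.91 and 0.47. The deficient signal of Ccnb2 was 586 on replicate 1 and 2727 on replicate 2, against 1948 and 1313 in wild type. Of the mitotic kinases tested, Aurka gave 0.34 and 0.16, and Plk1 gave 0.03 and 0.02, and neither was called. Plk1's mean of 0.02 turned below 0 with a fitted background surface (-0.06) and with the scanner program's ratios (-0.15). Ccnb1, Cdk1, Aurkb, Melk and Pbk, all cyclins or kinases of this phase, were too dim to be tested. Of these, cyclin B1 lay lowest (Ccnb1, -1.06 and -0.36), and the other means ran from -0.26 for Aurkb to 0.14 for Melk. Dimmer Ccnb1 probes, not well above background in either group, gave -0.13 and -0.13, and -0.52 and -0.13.

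Activators and partners of the anaphase-promoting complex, which ends mitosis by marking cyclins for destruction, lay slightly above 0. Cdc20, whose promoter with its CHR word is printed above, read net signals of 1658 and 1545 in wild type and 1115 and 2808 in deficient cells, and its log2 ratios were 0.12 and 0.33. Ube2c, the complex's ubiquitin-conjugating enzyme, gave -0.02 and 0.43. Neither passed the test, and both means turned below 0 under median centring (-0.47 and -0.05). The spindle checkpoint genes Bub1, Bub1b, Mad2l1 and Ttk were not tested; their means ran from -0.66 for Mad2l1 to 0.32 for Ttk.

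Spindle genes held the lowest mitotic value and some of the highest. Prc1, which bundles microtubules of the central spindle, gave -2.03 on replicate 1 and -0.12 on replicate 2, a mean of -1.07 ± 1.35 (SD, n = 2, adjusted p = 0.0852), so its low mean rests on replicate 1. Kif23, a kinesin of the central spindle, gave 0.46 and 0.17, and Nusap1, a spindle-associated protein, gave 0.34 and 0.17. A dimmer Kif23 probe, not well above background in either group, gave -0.22 and 0.11. Stmn1, a microtubule-destabilizing protein, read net signals of 3619 and 3169 in wild type and 2568 and 6536 in deficient cells, with log2 ratios of 0.33 and 0.54. The mean of Stmn1 turned to -0.41 under median centring, and its dimmer probe read -0.72 and 0.16. Kif20a gave -0.11 and -0.01 by its brightest probe and 0.78 and 0.05 by a probe that overlaps it. Kif11, a kinesin that separates the spindle poles, and Tpx2, an activator of Aurora A, were not tested (means of -0.02 and -0.27).

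Among genes of the centromere and of mitotic chromosomes, Birc5, the survivin subunit of the chromosomal passenger complex, had the highest mean of all members tested. Its net signals were 1144 and 832 in wild type and 1489 and 1924 in deficient cells, and its log2 ratios were 0.89 and 0.58, a mean of 0.73 ± 0.22 (SD, n = 2, adjusted p = 0.293). The deficient signal was the higher one on both arrays. Under median centring the mean of Birc5 was 0.07. Mki67 read net signals of 1023 and 520 in wild type and 395 and 1442 in deficient cells. Its log2 ratios were -0.96 and 0.65, so the marker most used for dividing cells pointed in opposite directions on the arrays; its dimmer probe did the same (-1.11 and 0.45). Cenpe, a kinetochore motor, gave -0.36 and 0.39, and Ncapg, a condensin subunit, gave -0.23 and 0.07. Dimmer probes of both, not well above background in either group, were above 0 on both arrays. They gave 0.14 and 0.26, and 0.50 and 0.48, for Cenpe, and 0.51 and 0.23 for Ncapg. Cenpa, Cenpf, Top2a and Ncaph were not tested. Top2a, topoisomerase II alpha, read 0.80 and 0.26, the highest mean of those left out (0.53), and its deficient signal was well above background on replicate 1 only. Dimmer Top2a probes, not well above background in either group, gave -0.05 and 0.12, and 0.28 and 0.16.

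Detection also differed by array. In deficient cells 6 tested members were not well above background on replicate 1, where their log2 ratios ran from -2.03 to -0.96, and 0 were on replicate 2, where the same genes ran from -1.09 to 0.35. They were Ccne1, Mcm10, Rrm1, Tk1, Ccna2 and Prc1. In all, 20 members were well above background in both groups on both arrays (8 replication, 12 mitosis), and 14 were in neither group on either array (4 replication, 10 mitosis). The 23 members not tested had a median log2 ratio of -0.11 (range -1.30 to 0.53), with 16 means below 0. No member was saturated.

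**Figure D4:**
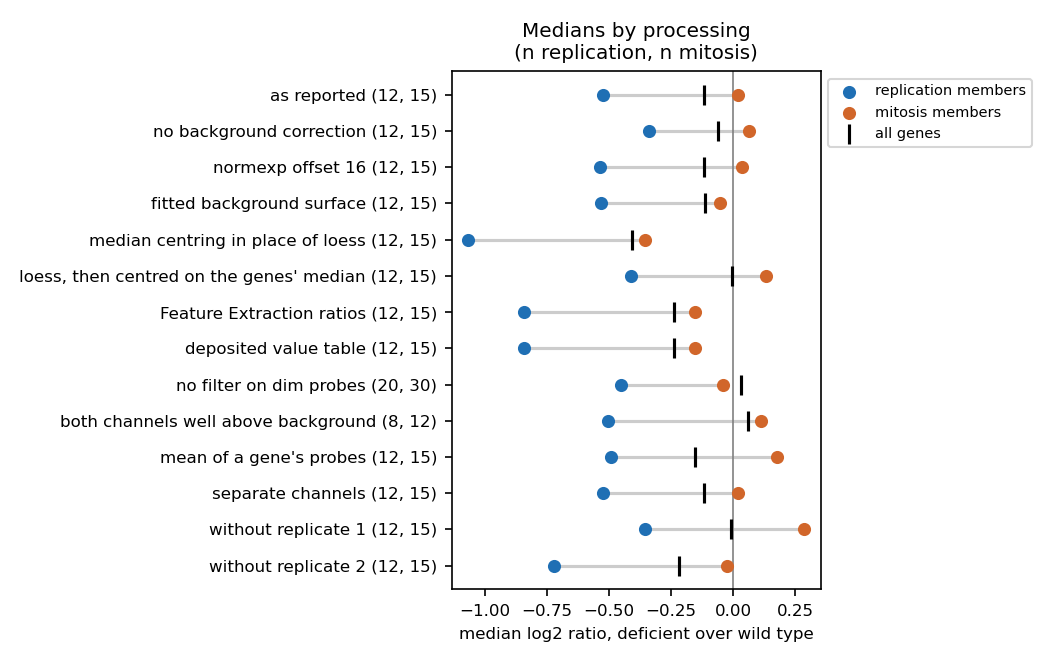
Median log2 ratio of the replication members (blue), the mitosis members (orange) and all genes (black tick) as reported, under 11 alternative ways of processing and with each array alone; numbers in brackets give the replication and mitosis genes that entered. The replication median is left of the mitosis median in every line, from -1.07 under median centring to -0.34 without background correction.

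Between other genes of the same pathways the gap was small. Of 54 other replication genes, 41 were tested, 3 were lower and 0 higher, with a median of -0.26, where 5.96% of all genes tested were lower. Of 74 other mitosis genes, 29 were tested, 4 were lower and 0 higher, with a median of -0.21. These lists are small, and their shares are read only against that background. The difference between these medians was 0.07 on replicate 1 and 0.12 on replicate 2, against 0.70 and 0.64 for the 50 members. The lower replication genes were Rfc4, a clamp loader subunit (-2.59 and -0.98; at least 2.25-fold lower), Timeless, which protects stalled forks (-2.09 and -1.16; at least 2.46-fold lower), and Orc2 of the origin recognition complex (-1.92 and -0.66). Rfc4 and Timeless were well above background in wild type only, so they passed the filter through the group in which they were high and their ratios are best read as the bounds; neither was tested when both channels had to be well above background. Orc2 was well above background in deficient cells on 1 array only, so it also passed through wild type and was not tested under that stricter filter. Of the alternatives that tested these genes, Rfc4 was called in 3 of 10, Timeless in 6 of 10 and Orc2 in 3 of 10, with adjusted p up to 0.268 for each. The bounds set the mean of the bright group against the dim group's reading. Where that reading lay below the lowest signal read well above background in its channel on that array, that lowest signal was used. The brightest other replication genes gave 0.44 and 0.34 for E2f2, -0.47 and -0.05 for Gmnn, 0.15 and 0.15 for Rfc2, and -0.22 and 0.01 for Pold1, and none of the 4 was called.

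The lower mitosis genes outside the 50 were Ncapd3 and Smc4 of the condensins, Cenpq of the kinetochore and Lmnb1 of the nuclear lamina. Ncapd3 gave -2.54 and -1.06 (at least 2.32-fold lower), Cenpq -2.06 and -0.86, and Lmnb1 -1.97 and -0.56. Smc4, a condensin core subunit with net signals of 3350 and 4000 in wild type and 679 and 2326 in deficient cells, gave -1.40 and -1.19 (adjusted p = 0.0274), the lower signal being the deficient one on both arrays. Another Smc4 probe, dimmer but well above background in both groups, gave 0.26 and -0.01, and the mean of both probes was not called. Smc4 was called in 5 of 11 alternatives (adjusted p up to 0.418), Ncapd3 and Lmnb1 in 4 of 10 each, and Cenpq in 3 of 10 (up to 0.268 for these 3). Ncapd3 was well above background in wild type only, so it too passed the filter through the group in which it was high. Cenpq and Lmnb1 were well above background in deficient cells on 1 array only and also passed through wild type. Bright genes of this list not called were Hmgb2 (-0.96 and 0.05), Kif22 (-0.36 and -0.44) and Pttg1 (0.22 and 0.15).

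Upstream of S phase, 2 of 9 tested genes of G1 cyclins, their kinases and Myc were lower and 0 higher, with a median of -0.21, beside 5.96% lower over all genes tested. Myc, a transcription factor of cell growth, read net signals of 2309 and 2361 in wild type and 368 and 1105 in deficient cells, and gave -1.72 and -1.42 (adjusted p = 0.00475). Ccnd2, cyclin D2, read 8545 and 9699 in wild type and 1347 and 5552 in deficient cells, and gave -1.64 and -1.20 (adjusted p = 0.0128). The brightest probes of both read lower on both arrays, but a Myc probe at another position gave 0.61 and -0.02, and the mean of Myc's probes was not called. Myc was called in 6 of 11 alternatives (adjusted p up to 0.240) and Ccnd2 in 7 of 11 (up to 0.268), whereas Ccnd3 (0.22 and 0.44) and Ccnh (-0.33 and -0.23) were not called. Among 14 tested CDK inhibitors, pocket proteins and quiescence genes (24 listed), E2f5 was lower (-2.19 and -0.49) and 0 were higher, with a median of -0.30; the call passed in 3 of 10 alternatives (adjusted p up to 0.273). Btg1 (0.05 and 0.31), Btg2 (0.11 and 0.94), Klf2 (-0.40 and 0.33) and Foxo1 (0.24 and -0.70), genes tied to quiescence, were the brightest of that list and were not called. E2f5 was well above background in deficient cells on 1 array only, so it passed the filter through wild type, the group in which it was high.

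**Figure D5:**
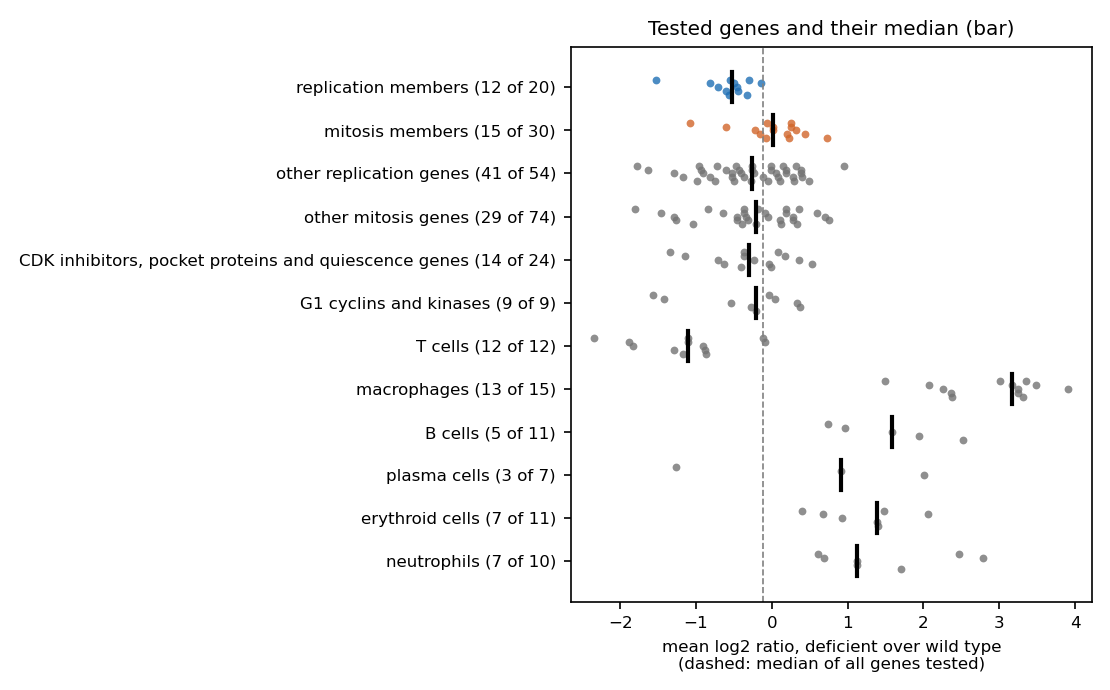
Mean log2 ratio of both arrays for each tested gene (points) and the median of each list (black bar), for the members, the other pathway lists and the cell type markers; the dashed line is the median of all genes tested, -0.12. Genes of the replication and mitosis lists lie between -1.80 and 0.96, whereas the macrophage genes (median 3.17) lie to the right of all of them.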

How the data were processed

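The authors scanned each array with Agilent Feature Extraction 9.5.3.1, as both the file headers and the submitters' processing notes give it. Per the file headers, each deposited scanner file lists the intensity of every spot and a log10 ratio of Cy5 over Cy3 made from it, and the deposited series table repeats those log10 ratios. Here mean intensity and local background median were corrected with normexp (offset 50), normalized by loess within each array, and tested as log2 ratios against 0 with limma 3.58.1 (R 4.3.3), adjusted over 9941 genes. Outlier spots were left out, repeat spots averaged and the brightest probe per gene used. A probe was tested if the same channel, Cy5 or Cy3, read well above background on both arrays. Of 41174 probes, 24375 were named through RefSeq accessions, 6301 through symbols and 2426 through synonyms (GRCm38.p6); 8072 kept the array's name. Net signals are background-subtracted and not dye-normalized. Only 2 arrays limit the precision. Bounds ("at least") compare per-channel levels after loess and Aquantile normalization and are open to dye bias. The fit was also run on simulated normal noise with the same variance for every gene and both arrays. The real arrays differ in spread, so that run does not bear on the calls made here. The members and lists were chosen with earlier results of these data known. Named are all members, Bcl11b and, of each pathway list, up to 4 called genes with the smallest adjusted p and the 4 brightest. Alternatives varied the background, dye normalization, filter, probe rule, ratios and replicates.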

Additional observations from a re-analysis of the deposited data

How the results depend on the processing

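The count of lower members went from 1 to 0 with the fitted background surface, the scanner program's ratios, the deposited table, no filter, both channels well above background, and separate channels. With both channels required, Ccne1 was not tested, and of the lower genes of the other lists only Myc, Ccnd2 and Smc4 were. The 10 lower genes of the other pathway lists became 3 without background correction, 4 with the fitted surface, 4 with median centring, 1 with the program's ratios or the deposited table, 4 with both channels well above background (with 1 higher, Cdc7), and 0 without the filter or with separate channels; with the mean of a gene's probes Myc and Smc4 left the list and Tfdp1 and Prim2 entered it. The replication median moved to -1.07 with median centring and -0.84 with the program's ratios or the deposited table; the mitosis median moved to -0.36 with median centring and was -0.024 to 0.29 when either array was left out. The gap between them was 0.40 without background correction, 0.48 with the fitted surface, 0.71 with median centring, 0.69 with the program's ratios or the deposited table, 0.41 without the filter, 0.62 with both channels, 0.67 with the mean of a gene's probes, and 0.64 to 0.70 with 1 array. Bcl11b missed the threshold at -1.52 (no background correction), -2.17 (program's ratios), -2.18 (deposited table) and -1.82 (no filter; separate channels). Uncalled members changed sign: Plk1 to -0.057 (surface) and -0.15 (program's ratios, deposited table); Cenpe to -0.051 (surface), -0.36 (median centring) and -0.31 (program's ratios, deposited table); Cdc20 to -0.47, Ube2c to -0.052 and Stmn1 to -0.41 (median centring); Kif20a to 0.053 and Ncapg to 0.032 (centred on the genes' median), and Kif20a to 0.18 (mean of probes). Over all genes the higher and lower calls, 363 and 592 as reported, were 289 and 186, 231 and 165, 69 and 350, 536 and 561, 50 and 65, and 560 and 220 without background correction, with the surface, with median centring, centred on the genes' median, with the program's ratios and with both channels. They were 0 by limma without the filter (5116 unadjusted p under 0.05) and with separate channels (1983). Median centring moved the median of all genes from -0.12 to -0.41. The tests without the filter and with both channels also cover other numbers of genes. The cause of these changes was not tested under any setting. The test of ratios against 0 is itself paired, since each ratio sets both genotypes of 1 array against each other; no further replicate block could be fitted.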
